A study of Mus musculus with 26 samples.

Results

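Transcripts of 10 genes that govern intrinsic apoptosis and the DNA damage checkpoint were followed in single cells of the fetal mouse ovary, from embryonic day E11.5 to E18.5. The genes were Bax, Bcl2, Bcl2l1, Bcl2l11, Bbc3, Mcl1, Casp2, Casp9, Apaf1 and Chek2. They were chosen by symbol, with earlier results of these data known, and all 10 were found among the 16344 genes with a complete row in the count table. The cells came from female gonads of mice with 2 germ cell reporter transgenes, Blimp1-mVenus and Stella-ECFP, and every group carried both. Cells were grouped by stage and by sort gate: BVSC cells were sorted for the reporters, BV is a smaller gate whose name is not explained in the labels, and Negative cells of the same stages serve as the comparison. The groups are BVSC at each of the 8 stages, BV at E11.5 and E14.5, and Negative at each of the 8 stages. All gonads were dissociated with trypsin, and those of several embryos were combined at each stage.

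In the intrinsic pathway, pro-survival members of the BCL2 family hold the effectors of mitochondrial permeabilization in check. BH3-only proteins, made or stabilised under stress, bind those survival proteins and free the effectors, after which cytochrome c released from mitochondria assembles the apoptosome and activates caspases. In mice many female germ cells are lost between meiotic entry and birth. The kinase CHK2 passes signals from unrepaired DNA breaks to the p53 family and is known to act in the removal of mouse oocytes with persistent breaks.

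The 1881 cells lay in 26 libraries, numbered 1 to 26 here, and 1302 were BVSC, 50 BV and 529 Negative. Counts of unique molecular identifiers (UMIs) were summed over the cells of a library, stage and gate, and levels are given as CPM, the UMIs of a gene scaled to the deposited UMI total of the pool. These are tag counts from the 3′ ends of transcripts and are not divided by gene length. There were 18 BVSC pools of 26 to 96 cells with 4743602 to 27498626 UMIs (4 at E14.5, 2 at each other stage), and 17 Negative pools of 8 to 48 cells with 700825 to 13141802 UMIs (1 at E13.5). The median cell held 248294 UMIs in BVSC and 169412 in Negative. Of the BVSC cells, 94.7% fell in clusters with germ cell markers, and of the Negative cells 92.8% fell in somatic clusters. Dppa3, the gene of the Stella reporter, averaged 500.5 CPM over BVSC cells and 41.4 CPM over Negative cells. The germ cell markers Ddx4 and Dazl were not analysed here. The summed level of 14 somatic markers was 19.9 to 387.5 CPM in BVSC pools and 1757 to 3009 CPM in Negative pools, and within BVSC it was highest at E16.5 (387.5 CPM in library 20 and 214.9 CPM in library 22). Pools of both gates were present in 10 libraries, and at E15.5 and E16.5 BVSC and Negative pools came from different libraries. Whether libraries of the same stage hold different animals is not stated, and the p-values therefore reflect variation from library to library, possibly technical.

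In BVSC cells the checkpoint kinase gene Chek2 was 4.84-fold lower at E18.5 than at E11.5, and Bcl2l11, a BH3-only gene, was 7.44-fold lower. The pro-survival gene Bcl2l1 rose 2.17-fold over the same span. Bax, the effector, was lowest at E15.5 and E16.5 and higher again in the E18.5 pools, while Apaf1, Casp2 and Casp9 passed no test between stages. By edgeR's quasi-likelihood test with Benjamini-Hochberg adjustment, 6 of the 10 genes differed between any stages (Bax, Bcl2, Bcl2l1, Bcl2l11, Mcl1 and Chek2), where 41.0% of all 10246 genes tested did. The Mcl1 call was lost in 7 of 33 alternatives, among them deposited UMI totals as the scale (0.276), no filter (0.0844) and leaving out library 1 (0.16). The Bcl2 call was lost without library 20 (0.0632) or 22 (0.0593) and that of Bcl2l1 without library 7 (0.0629).

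**Figure D1:**
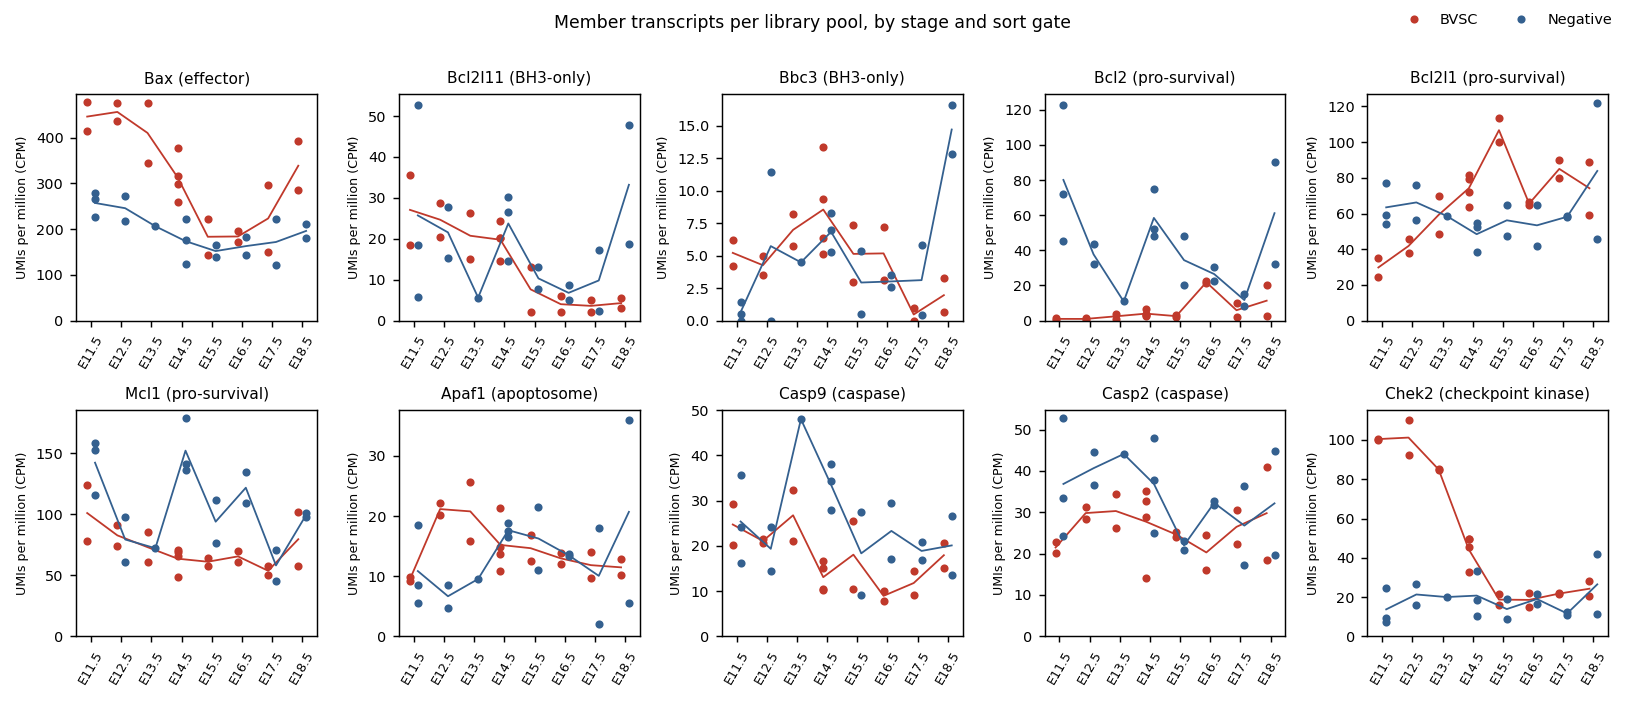
Each point is a library pool of BVSC or Negative cells, the x axis is the embryonic stage, the y axis is the level in CPM from 0, and lines join the means of a stage. Chek2 in BVSC pools lay between 84.7 and 110.1 CPM up to E13.5 and between 15.1 and 28.0 CPM from E15.5 on, within the range of the Negative pools.

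Promoter sequence is shown for Bax, Bcl2l11 and Chek2, the death and checkpoint genes among those called between BVSC stages, so that the start of each can be read beside its values. Sequences are from RefSeq promoter windows on GRCm38.p6, given 5′ to 3′ on the gene's strand from 200 bases before the start site to 30 bases from it on. Capitals mark the GC box GGGCGG, the CCAAT box CCAAT, the E2F element TTTNGCGC and the E-box CACGTG, each searched on both strands. These motifs do not overlap each other here.
Chek2, chr5:110839783-110840012, plus strand: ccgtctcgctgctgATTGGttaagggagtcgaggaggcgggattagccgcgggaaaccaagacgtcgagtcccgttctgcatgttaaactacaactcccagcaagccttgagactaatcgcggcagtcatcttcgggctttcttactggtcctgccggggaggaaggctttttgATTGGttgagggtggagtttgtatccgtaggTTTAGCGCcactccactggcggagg
Bcl2l11, chr2:128125838-128126067, plus strand: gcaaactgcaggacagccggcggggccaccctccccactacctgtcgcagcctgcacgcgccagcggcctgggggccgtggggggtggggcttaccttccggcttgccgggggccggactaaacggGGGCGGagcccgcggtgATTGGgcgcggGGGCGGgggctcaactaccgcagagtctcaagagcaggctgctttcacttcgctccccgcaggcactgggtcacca
Bax, chr7:45466869-45467098, minus strand: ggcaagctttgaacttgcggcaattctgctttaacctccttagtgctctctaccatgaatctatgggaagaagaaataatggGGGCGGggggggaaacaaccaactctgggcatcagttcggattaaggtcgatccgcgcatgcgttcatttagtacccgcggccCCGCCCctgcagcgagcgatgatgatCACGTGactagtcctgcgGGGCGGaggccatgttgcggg

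In windows of 300 bases around the start sites of 32851 RefSeq promoters, the E2F element occurred in 1.38%, the E-box in 7.15%, the GC box in 35.7% and the CCAAT box in 37.4%. Chek2 held 1 E2F element and 2 CCAAT boxes in that window, Bax held 3 GC boxes and 2 E-boxes, and Bcl2l11 held 3 GC boxes and 1 CCAAT box at the start site shown. A p53 response element (paired decamers with a spacer of up to 13 bases) was in 0 of the 15 windows of the 10 genes and in 0.0731% of all windows. These are matches of letters and say nothing of binding.

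Bax (7:45461697-45466898, minus strand, GRCm38) encodes an effector that permeabilizes the outer mitochondrial membrane. In BVSC pools it had 415 and 477 CPM at E11.5, 436 and 477 CPM at E12.5, 345 and 476 CPM at E13.5, and 259, 377, 317 and 299.5 CPM at E14.5. It then had 144 and 223 CPM at E15.5, 171 and 197 CPM at E16.5, 297 and 149.5 CPM at E17.5, and 285 and 392.1 CPM at E18.5. Every pool of E15.5 and E16.5 was below every pool of E11.5 to E14.5, and the pools of E18.5 were above those of E16.5. Bax differed between stages (edgeR adjusted p = 0.0013), a call kept under all 33 alternatives. Single contrasts were not called: the log2 fold change was -0.81 ± 0.30 (SE) for E16.5 against E14.5 (edgeR adjusted p = 0.0703) and 0.90 ± 0.34 for E18.5 against E16.5 (edgeR adjusted p = 0.211). The first of these was called in 11 of its 33 alternatives, among them without library 6 (0.0292).

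Bcl2l11 (2:128126038-128162547, plus strand) encodes BIM, a BH3-only protein that binds all the main pro-survival proteins. It had 35.6 and 18.6 CPM at E11.5, 28.8 and 20.5 CPM at E12.5, 15.1 and 26.4 CPM at E13.5, and 20.2, 24.2, 20.2 and 14.4 CPM at E14.5. Its levels were 2.15 and 13.1 CPM at E15.5, 2.00 and 5.99 CPM at E16.5, 2.17 and 5.0004 CPM at E17.5, and 5.57 and 2.95 CPM at E18.5. Early and late pools did not overlap, with every pool up to E14.5 above every later pool. The E18.5 levels rested on few cells. Library 6 had 114 UMIs in 17 cells, 50% of them in 1 cell, and library 26 had 14 UMIs in 3 cells. The log2 fold change was -2.90 ± 0.79 for E18.5 against E11.5 (edgeR adjusted p = 0.0093) and -2.35 ± 0.72 for E16.5 against E14.5 (edgeR adjusted p = 0.03). The first was 0.0507 without library 1 and 0.0533 without library 26, and the second was 0.256 without library 20, 0.0648 without library 5, 0.107 with libraries merged by replicate, 0.0931 with classes from clusters and 0.0584 with the start of the library name as a covariate.

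Bbc3 (7:16308393-16318205, plus strand) encodes PUMA, a BH3-only protein induced by p53. It was the rarest member beside Bcl2, with 0 to 13.4 CPM in BVSC pools and a median of 5.09 CPM. In BVSC pools of E17.5 it had 0.931 CPM in library 24 and 0 UMIs in library 25, and in those of E18.5 it had 3.28 CPM in library 6 and 0.632 CPM in library 26. Pools of E11.5 had 6.24 and 4.19 CPM, above both E18.5 pools. Bbc3 passed no stage test in BVSC (edgeR adjusted p = 0.121 for any stage), though it did without library 24 (0.0205) and with DESeq2 (0.0147).

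Among the pro-survival genes, Bcl2l1 (2:152780668-152831728, minus strand), which encodes BCL-XL, rose. It had 35.0 and 24.5 CPM at E11.5, 45.9 and 37.7 CPM at E12.5, 69.8 and 48.7 CPM at E13.5, and 63.6, 81.6, 79.1 and 72.3 CPM at E14.5. Its later levels were 113 and 99.996 CPM at E15.5, 64.6 and 66.5 CPM at E16.5, 90.1 and 79.9 CPM at E17.5, and 59.4 and 89.0 CPM at E18.5. No later pool was as low as the highest pool of E11.5, and the E15.5 pools were the highest of all. The log2 fold change was 1.14 ± 0.29 for E14.5 against E11.5 (edgeR adjusted p = 0.0116, and 0.183 without library 7). It was 1.12 ± 0.32 for E18.5 against E11.5 (edgeR adjusted p = 0.013, 0.134 without library 7 and 0.211 without library 26).

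Mcl1 (3:95658788-95663176, plus strand), a short-lived pro-survival protein's gene, had the most tags of the 3 survival genes in BVSC cells at E11.5. It had 124 and 77.7 CPM at E11.5, 74.3 and 91.0 CPM at E12.5, 85.6 and 60.4 CPM at E13.5, and 71.0, 48.5, 69.1 and 65.7 CPM at E14.5. It then ranged over 50.004 to 69.9 CPM from E15.5 to E17.5 and had 101 and 57.6 CPM at E18.5. The E14.5 pools lay below both E11.5 pools, and the E18.5 pools overlapped them. The log2 fold change was -0.85 ± 0.25 for E14.5 against E11.5 (edgeR adjusted p = 0.0251). That call rested on library 1, without which the adjusted p was 0.321, and it was also lost without library 5 (0.0543), with deposited UMI totals as the scale (0.127), with no filter on low counts (0.0658) and with merged libraries (0.0831). Within libraries whose names begin alike, the log2 ratio of E14.5 to E11.5 was -1.05 in libraries 1 to 6 and -0.20 in the others.

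Bcl2 (1:106538178-106714274, minus strand), the founding survival gene of the family, was nearly silent in early BVSC cells. It had 1.65 and 0.228 CPM at E11.5, 0.377 and 1.46 CPM at E12.5, 3.83 and 0.975 CPM at E13.5, and 6.45, 3.39, 2.44 and 3.47 CPM at E14.5. It had 1.97 and 3.04 CPM at E15.5, 22.3 and 21.3 CPM at E16.5, 9.81 and 1.93 CPM at E17.5, and 20.3 and 2.32 CPM at E18.5. The E16.5 pools were above all others and the pools of E17.5 and of E18.5 were far apart from each other. The E11.5 values were near the floor, with 27 UMIs in 6 cells of library 1 and 5 UMIs in 5 cells of library 7. The log2 fold change of E18.5 against E11.5 was 3.31 ± 1.17 (edgeR adjusted p = 0.0402), and the adjusted p was 0.582 without library 6, 0.257 without library 7, 0.0713 with cells of at least 100000 UMIs, and between 0.0506 and 0.0595 without library 12, 14, 20 or 22.

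Bcl2 in BVSC pools was set beside the somatic markers, and a link between them was not tested. At E15.5 the somatic marker sums of the BVSC pools were 113.0 and 144.8 CPM, with Bcl2 at 1.97 and 3.04 CPM. Negative pools of E16.5 had 22.5 and 30.5 CPM of Bcl2, and the BVSC pools of E16.5 had the highest somatic marker sums given above. Among cells in germ clusters, Bcl2 stood at 5.54 CPM in library 20 and 10.7 CPM in library 22 at E16.5, against 22.3 and 21.3 CPM by gate. At E18.5 the germ cluster cells of library 6 had 24.2 CPM and those of library 26 had 2.19 CPM, close to the values by gate, and the somatic marker sums of the BVSC pools were 73.8 and 45.7 CPM. The annotation has a gene, D630008O14Rik, whose exons overlap Bcl2 on the other strand, and the strand setting of the counting is not given in the sources used here; it held 147 UMIs in all, where Bcl2 held 1890 in BVSC and 3901 in Negative pools.

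**Figure D2:**
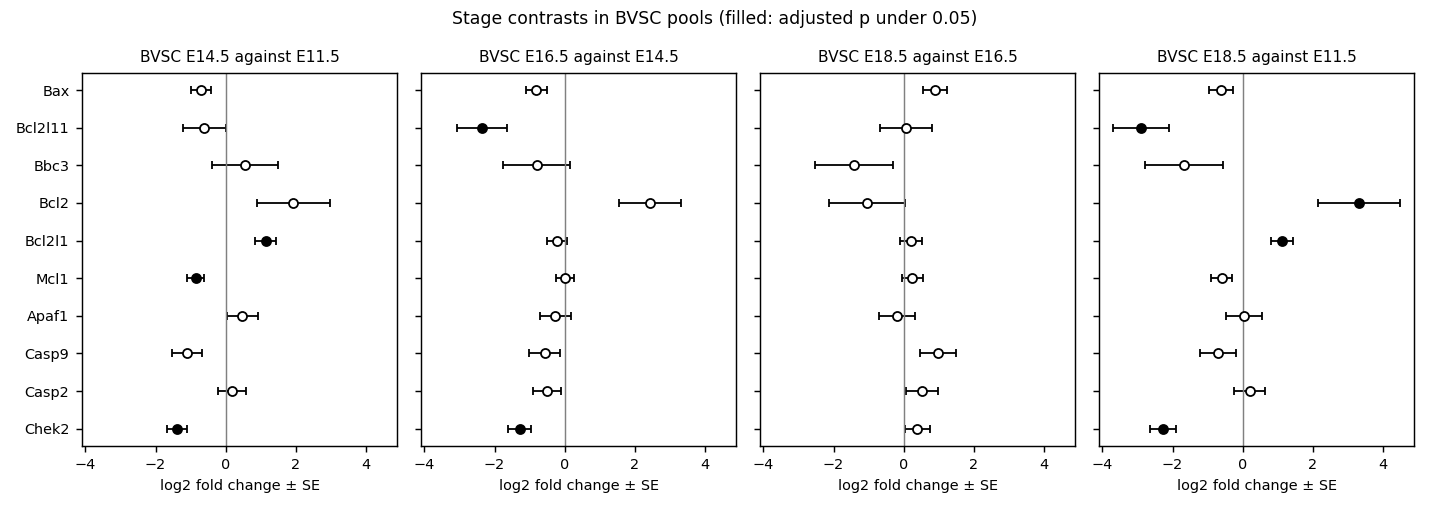
Points give the log2 fold change in BVSC pools (x axis) of each gene (rows) for 4 stage contrasts, bars are standard errors and filled points have an adjusted p under 0.05. Filled points number 3 for E14.5 against E11.5, 2 for E16.5 against E14.5, 0 for E18.5 against E16.5 and 4 for E18.5 against E11.5.

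Apaf1, Casp9 and Casp2 were not called between stages. Apaf1 (10:90989311-91082770, minus strand) encodes the scaffold of the apoptosome, Casp9 (4:141793612-141815976, plus strand) the caspase it activates, and Casp2 (6:42264985-42282508, plus strand) a caspase known to act in loss of mouse oocytes. Over BVSC pools Apaf1 had 9.21 to 25.7 CPM, Casp9 had 7.86 to 32.4 CPM and Casp2 had 14.1 to 41.0 CPM. Apaf1 had 12.8 and 10.1 CPM in the E18.5 pools, and 9.78 and 9.21 CPM in the E11.5 pools. The edgeR adjusted p for any stage difference was 0.296 for Apaf1, 0.806 for Casp2 and 0.053 for Casp9. Casp9 was near the threshold and passed it in 5 of 33 alternatives, among them DESeq2 (0.0024) and cells with at least 100000 UMIs (0.0389). Its lowest BVSC pools were those of library 20 at E16.5, at 7.86 CPM, and of library 25 at E17.5, at 9.16 CPM. Its highest was that of library 3 at E13.5, at 32.4 CPM. Exons of Cela2a and Ctrc overlap Casp9 on the other strand, and these genes held 101 and 2 UMIs.

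Chek2 (5:110839979-110874145, plus strand), the checkpoint kinase gene, had the clearest course of the 10. In BVSC pools it had 101 and 100.2 CPM at E11.5, 110.1 and 92.4 CPM at E12.5, 84.7 and 85.2 CPM at E13.5, and 32.6, 45.4, 49.5 and 49.3 CPM at E14.5. It had 15.8 and 21.6 CPM at E15.5, 15.1 and 22.03 CPM at E16.5, 21.98 and 21.6 CPM at E17.5, and 20.4 and 28.0 CPM at E18.5. The pools formed 3 levels with no overlap, those up to E13.5, those of E14.5 and those from E15.5 on. By edgeR, Chek2 differed between stages (adjusted p = 7.4e-07) and its log2 fold change was -1.38 ± 0.29 for E14.5 against E11.5 (adjusted p = 0.0028) and -2.27 ± 0.36 for E18.5 against E11.5 (adjusted p = 9.8e-05). These 3 calls were kept under every alternative run.

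Chek2 had a log2 fold change of -1.29 ± 0.32 for E16.5 against E14.5 (edgeR adjusted p = 0.0091), with 0.157 without library 20 and 0.102 with classes from clusters. Of the 7 steps from a stage to the next, its only called step was E15.5 against E14.5, with a log2 fold change of -1.31 ± 0.32 (edgeR adjusted p = 0.0196), and it was 0.336 without library 16, 0.0516 without library 5 and 0.0627 with merged libraries. For E14.5 against E13.5 it was -1.004 ± 0.290 (edgeR adjusted p = 0.0938). Within libraries 1 to 6, the log2 ratio of E18.5 to E11.5 was -2.27, and in the others it was -1.82.

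The counts of called genes in each window were read against all genes. For E14.5 against E11.5, 3 of 10 were called (1 higher, 2 lower), where 13.9% of all genes were, 8.35% higher and 5.58% lower. For E16.5 against E14.5, 2 of 10 were called, both lower, where 16.3% of all genes were and 7.51% were lower. For E18.5 against E11.5, 4 of 10 were called, where 27.8% of all genes were. For E18.5 against E16.5, 0 of 10 were called by edgeR and 0 by DESeq2, where edgeR called 1.23% of all genes. Bax had an unadjusted p under 0.05, and it was called with no filter on low counts and without library 6. Among the steps from a stage to the next, 1 call was made, for E15.5 against E14.5, where 6.26% of all genes were called and 2.70% were called lower. Over all genes the other steps gave 0.0683% for E12.5 against E11.5, 0.0976% for E13.5 against E12.5, 1.33% for E14.5 against E13.5, 0.0390% for E16.5 against E15.5, 0% for E17.5 against E16.5 and 0.00976% for E18.5 against E17.5. DESeq2 made 2 calls over the steps. The median log2 fold change of all genes was 0.15 for E18.5 against E11.5, and 0.41 when scaled by deposited UMI totals, and all 4 calls kept their direction under both. The median of the 10 genes was -0.61 for that contrast.

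The balance of death to survival transcripts was described as the log2 ratio of the summed CPM of Bax, Bcl2l11 and Bbc3 to that of Bcl2, Bcl2l1 and Mcl1, with no test. In BVSC pools it was 1.90 ± 0.55 at E11.5, 1.95 ± 0.012 at E12.5, 1.71 ± 0.70 at E13.5 and 1.26 ± 0.26 at E14.5 (SD, n = 4 at E14.5 and 2 elsewhere). It was 0.16 ± 0.54 at E15.5, 0.34 ± 0.19 at E16.5, 0.58 ± 0.50 at E17.5 and 1.06 ± 0.50 at E18.5. The pools of E15.5, E16.5 and E17.5 all lay below every pool of E11.5 to E14.5. E18.5 minus E11.5 was -0.84, between -1.23 and -0.45 when a library was left out. Bax made up 91.7% to 98.0% of the death sum by stage mean, so the ratio followed Bax. Without Bax it was -2.06 ± 0.16 at E11.5, -4.06 ± 0.047 at E16.5, -5.19 ± 0.67 at E17.5 and -4.87 ± 0.72 at E18.5 (SD, n = 2 each), with the pools of E17.5 and E18.5 overlapping. Of 8 listed pro-survival genes 3 were measured, of 7 BH3-only genes 5 and of 3 effectors 2. The balance thus covers only part of each kind.

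Single pairs differed in their timing. The log2 ratio of Bax to Bcl2l1 was 3.903 ± 0.50 at E11.5, 0.75 ± 0.57 at E15.5 and 2.19 ± 0.086 at E18.5 (SD, n = 2 each). That of Bcl2l11 to Bcl2l1 was -0.18 ± 0.30 at E11.5, -4.16 ± 1.796 at E15.5 and -4.00 ± 0.99 at E18.5. Bax to Mcl1 stayed within 1.48 to 2.49 by stage mean. In Negative pools the summed balance lay between -0.35 and 0.61 by stage mean, and at E18.5 it was -0.012 ± 0.35 (SD, n = 2).

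**Figure D3:**
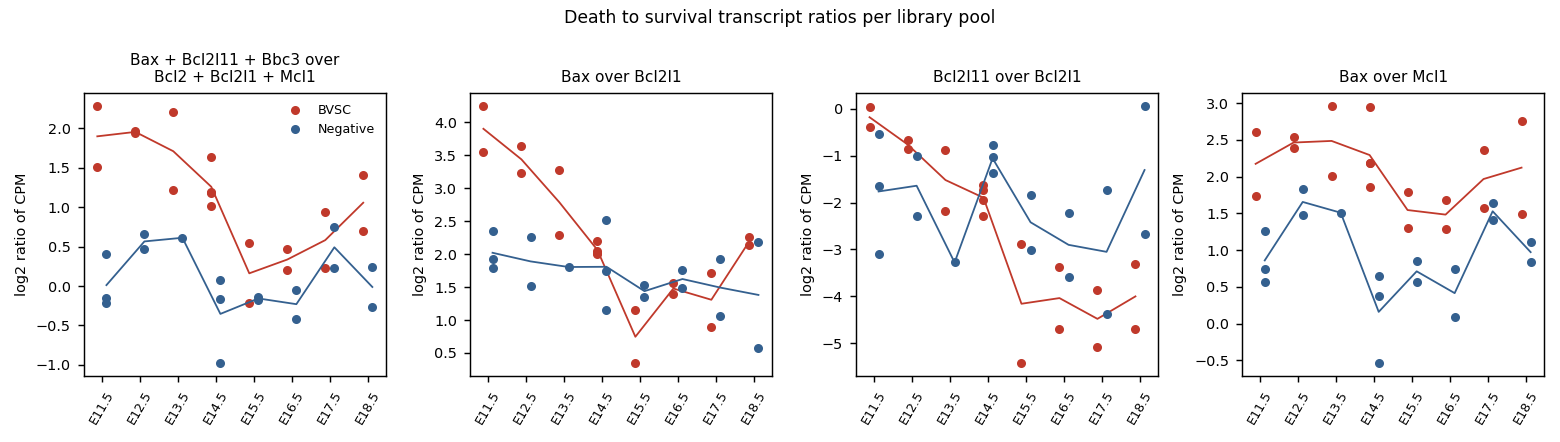
Each point is a library pool, the x axis is the stage and the y axis the log2 ratio of CPM of death to survival transcripts. Lines run through stage means, for BVSC and Negative. A pseudocount of 0.5 CPM was added for the single pairs only, not for the summed ratio. The summed ratio in BVSC pools was 1.90 at E11.5, 0.16 at E15.5 and 1.06 at E18.5 on average, while Bcl2l11 over Bcl2l1 stayed low after E14.5.

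Cells were also compared at a fixed depth. Each cell was thinned to 50000 UMIs, which left out 62 BVSC and 60 Negative cells, and the share with at least 1 UMI was taken with an exact (Clopper-Pearson) 95% interval that covers counting error only. Chek2 was seen in 91.5% of BVSC cells at E11.5 (85.4% to 95.7%), in 61.8% at E14.5 (55.7% to 67.7%) and in 37.6% at E18.5 (27.8% to 48.3%). Without thinning, the shares were 99.2%, 80.6% and 66.0%. Bcl2l11 was seen in 43.1% of BVSC cells at E11.5 (34.4% to 52.0%) and in 7.53% at E18.5 (3.08% to 14.9%).

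Bcl2l1 went the other way, from 50% of BVSC cells at E11.5 (41.1% to 58.9%) through 84.3% at E14.5 (79.3% to 88.4%) to 72.0% at E18.5 (61.8% to 80.9%). Bcl2 was seen in 0% of 130 thinned BVSC cells at E11.5 (upper limit 2.80% at that depth), 28.9% at E16.5 (22.3% to 36.3%) and 20.4% at E18.5 (12.8% to 30.1%). Without thinning, its shares were 8.27%, 45.7% and 44.3%. Bax was seen in 85.7% or more of BVSC cells at every stage. The fall of Chek2 and Bcl2l11 in the pools went with fewer cells in which they were seen, and cells with fewer molecules and cells with none cannot be told apart at this depth.

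**Figure D4:**
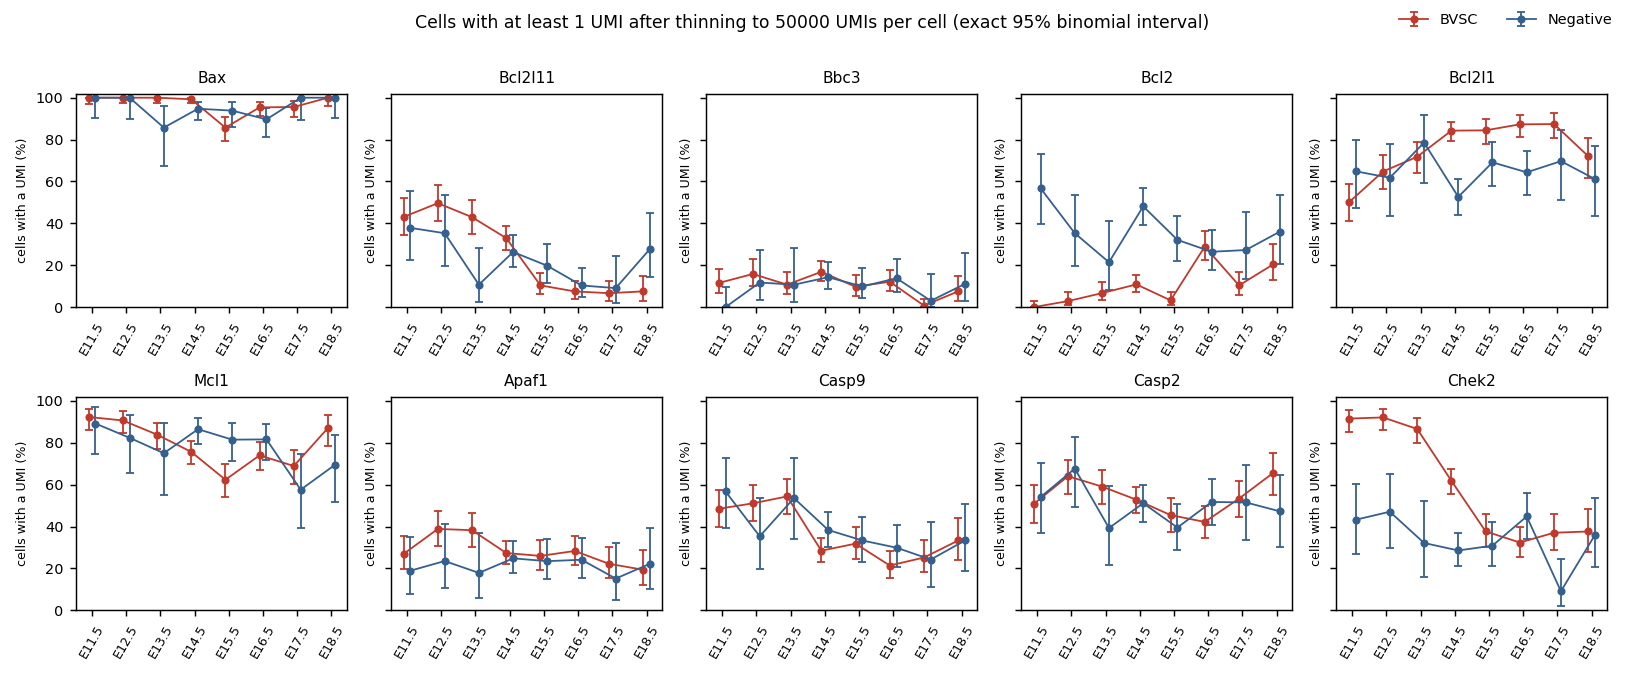
The y axis is the percentage of BVSC and of Negative cells with at least 1 UMI of each gene after thinning to 50000 UMIs per cell, the x axis is the stage, and bars are exact 95% binomial intervals. Chek2 in BVSC cells was at 91.5% at E11.5 and 37.6% at E18.5, and Bcl2 was at 0% and 20.4%.

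Against the Negative cells of the same stages, 4 of the 10 genes were called, where 59.0% of all 11291 genes tested were. Bax was higher in BVSC, with 319 ± 113 CPM in BVSC pools and 197 ± 49.7 CPM in Negative pools (SD, n = 18 and 17). Chek2 was higher too, with 50.9 ± 34.5 CPM in BVSC and 18.1 ± 9.31 CPM in Negative pools. Bcl2 was lower, with 5.96 ± 7.41 CPM in BVSC and 45.2 ± 30.5 CPM in Negative pools, and so was Mcl1, with 71.5 ± 19.1 CPM in BVSC and 109 ± 37.3 CPM in Negative pools. The ranges of the gates overlapped for all 4 when all stages were pooled. These comparisons average over stages, and the Chek2 gap was far smaller from E15.5 on. At E11.5 its mean was 100.45 CPM in BVSC and 13.7 CPM in Negative pools. From E15.5 to E18.5 its stage means in BVSC were 18.7, 18.5, 21.8 and 24.2 CPM. Those in Negative pools were 13.9, 18.975, 11.6 and 26.5 CPM. Bcl2 was lower in BVSC at every stage mean, and the gates were closest at E16.5 (21.8 against 26.5 CPM).

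The edgeR log2 fold change of BVSC against Negative, with stage as a covariate, was 0.79 ± 0.13 for Bax (adjusted p = 3.3e-06), 1.30 ± 0.28 for Chek2 (adjusted p = 0.00016), -3.19 ± 0.47 for Bcl2 (adjusted p = 3.7e-07) and -0.43 ± 0.13 for Mcl1 (adjusted p = 0.0072). The median of all genes was 0.41 in that fit, 0.29 with deposited UMI totals as the scale and -0.01 with DESeq2, and these 4 directions held under all of them. With the library as a replicate block, over the 10 libraries that hold pools of both gates, Mcl1 was no longer called (log2 fold change -0.30, adjusted p = 0.184). The other 6 genes were not called without the block, and among them Casp9 had a log2 fold change of -0.47 ± 0.22 (edgeR adjusted p = 0.0701). Casp9 was called in 11 of 34 alternatives, among them DESeq2 (0.0036) and deposited UMI totals (0.025), and Casp2 was called with DESeq2 alone (0.024).

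The course over stages was also compared between the gates. In Negative pools, 0 of 10 genes were called by edgeR and 0 by DESeq2 for E18.5 against E11.5, where edgeR called 3.94% of all genes, and Bbc3 had an unadjusted p under 0.05. The difference of that stage effect, BVSC minus Negative, was called for 1 gene of 10, Chek2, where 6.73% of all genes were and 4.53% were lower. Chek2 had 20.4 and 28.0 CPM at E18.5 in BVSC pools, against 101 and 100.2 CPM at E11.5, and in Negative pools it had 41.7 and 11.2 CPM at E18.5, against 9.49, 7.13 and 24.5 CPM at E11.5. The edgeR difference was -3.16 ± 0.82 on the log2 scale (adjusted p = 0.013), with 0.436 without library 6 and 0.0748 without library 1. With the library as a replicate block, an alternative added after the data were seen, the Chek2 difference was -2.61 ± 0.90 (edgeR adjusted p = 0.05004) and no longer called. In that blocked fit Bcl2l11 was called, at -4.22 ± 1.34 (edgeR adjusted p = 0.026). Without the block the difference was -6.76 ± 2.26 for Bbc3 (edgeR adjusted p = 0.0635, called in 4 alternatives) and 3.61 ± 1.20 for Bcl2 (edgeR adjusted p = 0.062, called in 9). For Bcl2l11 it was -3.47 (edgeR adjusted p = 0.089, called in 3). The Negative values of Bbc3 were near the floor at E11.5, with 1, 1 and 0 UMIs in libraries 1, 2 and 7. At E18.5 they rested on few cells, with 49 UMIs in 2 cells of library 6 and 40 UMIs in 3 cells of library 26.

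Genes whose log2 CPM followed that of a called member most closely over the 18 BVSC pools were listed as a description, by Pearson correlation among 10236 candidate genes that share the same libraries and depth. For Chek2 they were Enpp3 (r = 0.99) and Slc25a13 (r = 0.98), and for Bax they were Phb2 (r = 0.97) and Timm17a (r = 0.96). For Bcl2l11 they were Jakmip1 and Siglecf (r = 0.96 each), for Bcl2l1 Ddrgk1 (r = 0.91) and Commd7 (r = 0.88), for Bcl2 Klhl23 (r = 0.89) and Ids (r = 0.88), and for Mcl1 Ppp1cb (r = 0.88) and Baz2a (r = 0.86).

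Other genes of the pathway were taken from lists of survival genes, BH3-only genes, effectors, caspases, inhibitors of apoptosis, the death receptor arm, the checkpoint with the p53 family, and p53 targets. Besides the 10, 37 listed genes were measured and 36 tested between BVSC stages, out of 85 genes on the lists, the 10 included. For E18.5 against E11.5, 9 of the 36 were called (4 higher, 5 lower), where 27.8% of all genes were. The largest of these changes were in Pidd1, a p53-induced scaffold for caspase-2 (log2 fold change -2.85 ± 0.76), Sesn2 and Gadd45a, stress-induced p53 targets (-2.46 ± 0.50 and -2.40 ± 0.60), and Hormad1, which recruits the break response to unpaired meiotic chromosome axes (1.95 ± 0.26). Pidd1 had 2.07 ± 2.33 CPM at E18.5 and 12.9 ± 6.25 CPM at E11.5 in BVSC pools (SD, n = 2 each). Sesn2 had 8.81 ± 4.23 CPM at E18.5 and 41.1 ± 4.57 CPM at E11.5.

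Against Negative pools, 25 of the 37 other genes were called, where 59.0% of all genes were. Of the 37, 17 were higher in BVSC, where 36.0% of all genes were, and 8 were lower. Over all 11291 genes, 6664 were called, 4063 of them higher and the rest lower. The receptor Tnfrsf1a had 4.16 ± 2.95 CPM in BVSC pools and 79.5 ± 27.7 CPM in Negative pools (SD, n = 18 and 17). Casp8, the caspase of the death receptors, had 4.03 ± 4.27 CPM in BVSC pools and 56.5 ± 23.2 CPM in Negative pools. Of the 4 measured genes of the death receptor arm (7 were listed), 0 were higher in BVSC and 2 lower, too few to read against all genes. Of 26 listed checkpoint and p53 family genes 10 were measured, Chek2 included, and the rest had no complete row. Among the 10 measured, 9 were higher and 0 lower, with a median of 1.45 on the log2 scale against 0.41 for all genes. Hormad1, which is also a germ cell marker here, had 386 ± 199.6 CPM in BVSC pools and 21.8 ± 32.3 CPM in Negative pools, and Trp73, a p53 family member, had 2.38 ± 2.52 CPM in BVSC and 0.0862 ± 0.182 CPM in Negative pools.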

How the data were processed

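Single cells were picked by mouth after sorting and their cDNA was made by STRT-seq, modified to enrich 3′ ends, per the labels' protocols. The deposited values are raw UMI counts per gene and cell, and a deposited cell table gives each cell's stage, library, gate and total UMI count, since the labels of the libraries give no stage. STAR, featureCounts, Subread, UMI-tools and CASAVA 1.8 are named per the submitters' processing notes, with mm10 as the build. Their roles, the annotation and the strand setting are not given here. The table read here ends within chromosome 8, and its complete genes make up 51.2% of the deposited UMIs in the median cell. Genes without a complete row were not analysed here. CPM therefore uses the deposited UMI totals.

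Counts were summed per library, stage and gate into pools of at least 5 cells and tested by quasi-likelihood in edgeR 4.0.16 (with limma 3.58.1 under R 4.3.3) with TMM, filterByExpr and Benjamini-Hochberg adjustment at 0.05 over all genes. The fit over BVSC pools had 1 coefficient for each stage, and the gates were compared with stage as a covariate. The script was tested on simulated data with known changes, for E14.5 against E11.5 in BVSC pools. It called 12 of 100 genes changed 2-fold and 65 of 100 genes changed 4-fold. A gene that was not called may thus still have changed. A standard error is the absolute log2 fold change over the root of the test's F. The alternatives were DESeq2 1.42.0, deposited totals in place of TMM, no filter, cells with at least 100000 UMIs, pools of at least 10 cells, classes from clusters (scanpy 1.11.5), the start of the library name as a covariate, merged libraries, the library as a replicate block and each library left out. The block pairs pools of both gates that come from the same library, and its use for the stage effect between gates was added after the data were seen. All 10 genes are named by rule, with the genes most like each called one (log2 CPM, prior count 2) and up to 4 of the other listed genes per comparison. The genes, lists and markers were chosen with earlier results of these data known. Gene positions came from GENCODE annotation of GRCm38, and the sort gate, not the cluster, defines the groups. No cell was removed, and doublets were not called since cells were picked by hand.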

Additional observations from a re-analysis of the deposited data

Results flagged for a closer look

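The stage effect of Chek2 was called as different between the gates: the log2 difference of that stage effect, BVSC minus Negative, was -3.16 ± 0.82 (edgeR adjusted p = 0.013), with both BVSC pools of E18.5 below both of E11.5. The values of each pool stand in the text, and the adjusted p was 0.436 without library 6. With pools paired by library it was 0.05004, at a difference of -2.61 ± 0.90 by edgeR.

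The BV gate was used in no comparison. At E14.5 it gave pools of 15 cells from library 4 and 30 cells from library 5, and 3 genes were above every Negative pool of that stage in both. Bax averaged 310.4 CPM in BV pools, against 123 to 222 CPM in Negative pools. Bcl2l1 averaged 89.92 CPM in BV pools, against 38.3 to 54.7 CPM in Negative pools. Chek2 averaged 38.08 CPM in BV pools, against 10.4 to 33.1 CPM in Negative pools. Its BV pools had 42.7 CPM in library 4 and 33.4 CPM in library 5, the latter barely above the highest Negative pool. BVSC pools of E14.5 had 259 to 377 CPM of Bax, 63.6 to 81.6 CPM of Bcl2l1 and 32.6 to 49.5 CPM of Chek2. High levels against Negative pools were thus not particular to BV. The difference between BV and the other gates was not tested, and the share of all genes separated in this way was not counted.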

How the results depend on the processing

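Each of the 10 genes was refitted in 9 comparisons under the alternatives, 2990 values in all: 41 calls were lost, 59 were gained and 0 called values changed direction. Of the 10 genes in E16.5 against E14.5 (main count 2), 4 were called with no filter, 0 with classes from clusters and 1 with merged libraries. In the steps between stages (main count 1) the count was 2 with DESeq2, no filter or clusters and 0 with merged libraries. In the difference of the stage effect between gates (main count 1), it was 3 with DESeq2 and 2 with deposited totals, no filter, pools of at least 10 cells, clusters or the name start. In E18.5 against E16.5 (main count 0) it was 1 with no filter. Leaving out a library gave 4 to 7 genes for any stage, 2 to 3 for E14.5 against E11.5, 0 to 4 for E16.5 against E14.5, 2 to 4 for E18.5 against E11.5, 0 to 1 for E18.5 against E16.5, 0 to 3 for the steps, 4 to 5 for BVSC against Negative, 0 to 0 for Negative and 0 to 3 for the difference between gates, and the balance of E18.5 minus E11.5 was -1.23 to -0.45. The library as a replicate block was run for BVSC against Negative, where it took Mcl1 out of the calls and changed none of the other 9, and, as an alternative added after the data were seen, for the difference between gates. There it took Chek2 out and brought Bcl2l11 in, with 765 calls over all genes, over 20 pools with 4 residual degrees of freedom.

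Over all genes, the calls for E14.5 against E11.5 (main 1428) were 2175 with DESeq2, 933 with merged libraries and 526 to 1804 with a library left out. Those for E16.5 against E14.5 (main 1672) were 793 with merged libraries and 598 to 1971 with a library left out, and those for E18.5 against E11.5 (main 2852) were 1762 to 2980. For E18.5 against E16.5 (main 126) they were 564 with DESeq2, 500 with no filter, 54 with clusters and 15 to 446. For BVSC against Negative (main 6664) the replicate block gave 4350 and leaving out a library 6416 to 6666. For Negative E18.5 against E11.5 (main 353) they were 711 with DESeq2, 576 with no filter, 235 with cells of at least 100000 UMIs and 177 to 410. For the difference between gates (main 760) they were 1330 with DESeq2 and 390 to 785, and for any stage (main 4200) 3778 to 4606. The lowest counts came without library 7 for E14.5 and E18.5 against E11.5, without 22 for E16.5 against E14.5, without 20 for E18.5 against E16.5, without 6 (the difference between gates) and without 26 (Negative). The cause of these moves was not tested. Where a left-out library leaves 1 pool at a stage, that pool is assumed to vary like those of the other stages. Of 60 shares of cells with a UMI after thinning to 25000 or 100000 UMIs in place of 50000, 40 moved beyond their interval. Such a share changes with depth by its definition, so these moves do not test the courses over stages.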

Other observations

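The BV gate of E11.5 held a pool of 5 cells, from library 2, in which Mcl1 stood at 322 CPM, Bax at 170.1 CPM, Bcl2l1 at 134 CPM, Apaf1 at 114 CPM, Bcl2l11 at 91.8 CPM and Chek2 at 71.6 CPM. A single pool of so few cells has no replicate check.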
